A study of Mus musculus with 48 samples.

Results

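The 10 genes described here encode carriers that take up or release peptides and amino acids across the intestinal epithelium. They were chosen by symbol: Slc15a1, Slc6a19, Slc6a20a, Slc7a9, Slc3a1, Slc7a7, Slc7a8, Slc3a2, Slc1a1 and Slc1a5. Each symbol matched 1 of the 54532 genes in the count table, and all 10 were among the 21986 genes that passed a filter on low counts. The rule itself used no measured value, but the members were chosen with earlier results of these data known.

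RNA of whole mouse small intestine was sequenced over the first weeks of life in duodenum, the stretch that follows the stomach, and in ileum, the stretch that ends at the caecum. Each of the 16 groups, a region at day 0, 2, 4, 6 or 8 or at week 2, 3 or 4, had 3 samples, 48 in all. All groups were C57BL/6J mice from the Jackson colony, and the pieces were 2 cm long. Both sexes were used in the series, but no library used from day 6, day 8 or week 4 held the Y-linked Ddx3y above 10 CPM. The pups stayed with their mother to day 21 and ate chow afterwards, so week 3 lies at the end of suckling and week 4 after it, and age and diet cannot be told apart. The labels give the housing as standard germ-free, and litters were shared over 2 or 3 ages. They do not say whether duodenum and ileum samples with the same number came from 1 animal. If samples of a group were not separate animals, p-values measure only a technical spread.

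Dietary protein reaches the absorptive cell, the enterocyte, as free amino acids and as short peptides. Slc15a1 (PepT1) imports di- and tripeptides together with protons at the brush border, Slc6a19 (B0AT1) imports neutral amino acids with sodium, Slc6a20a (SIT1) imports proline and related imino acids, and Slc1a1 (EAAT3) imports glutamate and aspartate. Slc7a9 and Slc3a1 together form the brush border exchanger for cystine and cationic amino acids, while Slc7a7 and Slc7a8 each pair with Slc3a2 (CD98 heavy chain) on the basolateral side, where amino acids leave for the blood. Slc1a5 (ASCT2) exchanges neutral amino acids such as glutamine and is common in dividing cells.

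The genes lie on 6 chromosomes of the mouse genome build GRCm38 (mm10), and positions are from GENCODE M21. Slc15a1 spans chr14:121459621-121505252 on the minus strand with 23 exons in its principal transcript, and Slc7a7 (chr14:54369442-54417780) and Slc7a8 (chr14:54722209-54781946) are on the same strand of that chromosome. Slc6a19 is at chr13:73679745-73704865 and Slc6a20a at chr9:123634770-123678885, both on the minus strand. Slc3a1 is at chr17:85028376-85064236 on the plus strand. Slc3a2 (chr19:8706882-8723369, minus) and Slc1a1 (chr19:28835049-28913960, plus) share a chromosome, as do Slc7a9 (chr7:35448796-35466036, plus) and Slc1a5 (chr7:16781340-16798274, plus). Slc6a20a has a close paralogue, Slc6a20b, and the estimated counts may divide reads common to both, so its level is uncertain to that extent.

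RefSeq lists 14 promoters for 9 of the 10 genes. The 250 bases before the start are shown for Slc15a1, the gene with the largest rise from week 2 to week 3, and for Slc3a1, the gene with the largest early fall. They are written 5′ to 3′ in the direction of transcription, with capitals for letters that match a searched motif. The Slc15a1 stretch is chr14:121505255-121505504 on the minus strand and the Slc3a1 stretch is chr17:85028097-85028346 on the plus strand, both in GRCm38.p6.
Slc15a1: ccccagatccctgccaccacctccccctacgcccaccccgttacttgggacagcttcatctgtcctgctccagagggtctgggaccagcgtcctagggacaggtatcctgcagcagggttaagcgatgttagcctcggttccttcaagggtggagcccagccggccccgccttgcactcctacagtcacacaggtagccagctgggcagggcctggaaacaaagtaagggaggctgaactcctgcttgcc
Slc3a1: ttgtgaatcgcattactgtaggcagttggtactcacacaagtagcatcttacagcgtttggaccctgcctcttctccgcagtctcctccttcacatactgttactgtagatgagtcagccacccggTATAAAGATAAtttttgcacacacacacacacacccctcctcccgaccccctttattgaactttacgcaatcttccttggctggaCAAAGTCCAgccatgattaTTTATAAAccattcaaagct
Motifs of factors known from the gut, and of the core promoter, were searched on both strands: CAAAGTNCA for HNF4A, GTTAAT for HNF1, AGATAA for GATA factors, CCATAAA for CDX2 and the TATA box TATAAA. The Slc3a1 stretch held the HNF4A letters 39 bases before the start, the GATA letters 119 bases before it and TATAAA at 124, 20 and 18 bases, where the TATAAA at 124 overlaps the GATA match and the last 2 overlap on opposite strands. The Slc15a1 stretch held none of the 5, and 62% of its bases were G or C against 45.6% for Slc3a1 and 53.2% over all promoters. Of 32851 RefSeq promoters of the same length, 1.19% held the HNF4A letters, 6.43% the HNF1 letters, 9.99% the GATA letters, 2.43% the CDX2 letters and 12.4% TATAAA. Among the other members, HNF1 letters stood in a promoter of Slc6a20a at 56 bases and of Slc7a7 at 86 bases, and GATA letters stood in promoters of Slc7a9 and Slc7a7. No member promoter held the CDX2 letters. A match of letters is a description and not a bound site.

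Some libraries stood apart from their labels. In the samples labelled duodenum day 6 sample 3 and ileum day 6 sample 3, regional marker genes went against the labels. Pdx1, a transcription factor gene of the duodenum, read 0.115 CPM in the first and 14.6 in the second, against 11.1 and 11.8 in the other duodenum and 0.0872 and 0.421 in the other ileum samples of day 6. Fabp6, the ileal bile acid binding protein gene, read 1.98 and 0 CPM, against 0 and 0 in the other duodenum and 3.62 and 2.27 in the other ileum samples. Both samples were left out, so day 6 has 2 samples per region. Of the members, 8 of 10 and 7 of 10 were nearer to the other region in these samples. Duodenum day 0 samples 2 and 3 held both Xist, an RNA of female cells, and the Y-linked Ddx3y above 10 CPM. No other of the 46 libraries did, 30 having Xist alone and 14 Ddx3y alone. The 14 lay at day 0, 2 and 4 and at week 2 and 3 and none at day 6, day 8 or week 4, so sex was uneven over the ages, and its part in the results was not tested. Total estimated counts ran from 16824021 to 65042327 per sample. Mitochondrial genes took 15.8%, 14.6% and 16.9% of the counts in ileum week 3 samples 1, 2 and 3 and 26.9%, 22.1% and 35.2% in those of week 4. In duodenum their share was 17.3%, 23.0% and 29.8% at day 0 and 26.3%, 22.9% and 21.8% at week 4. The part of this share in the comparisons that use these groups was not tested. The labels say whole tissue, and 8 epithelial markers such as Epcam summed to 3408 to 10900 CPM, while 8 smooth muscle markers such as Myh11 summed to only 13.7 to 216 CPM, so muscle RNA was a small share of these samples. Pancreatic acinar markers summed to at most 639.5 CPM in duodenum and 38.15 CPM in ileum. In bulk tissue, fewer cells of a type and less RNA per cell cannot be told apart.

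Expression is given as CPM, the estimated count scaled to a common library total with TMM factors, with the 3 samples in label order, and fold changes are on the log2 scale from edgeR's quasi-likelihood test with Benjamini-Hochberg adjustment over all 21986 genes. A gene is called changed where the adjusted p is under 0.05. Age changed all 10 members in both regions, against 67.4% of all genes tested in duodenum and 58.7% in ileum. The least certain was Slc7a9 in ileum, where the edgeR adjusted p of 0.0121 became 0.0593 without ileum day 8 sample 1 and 0.0629 without ileum week 4 sample 2.

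**Figure D1:**
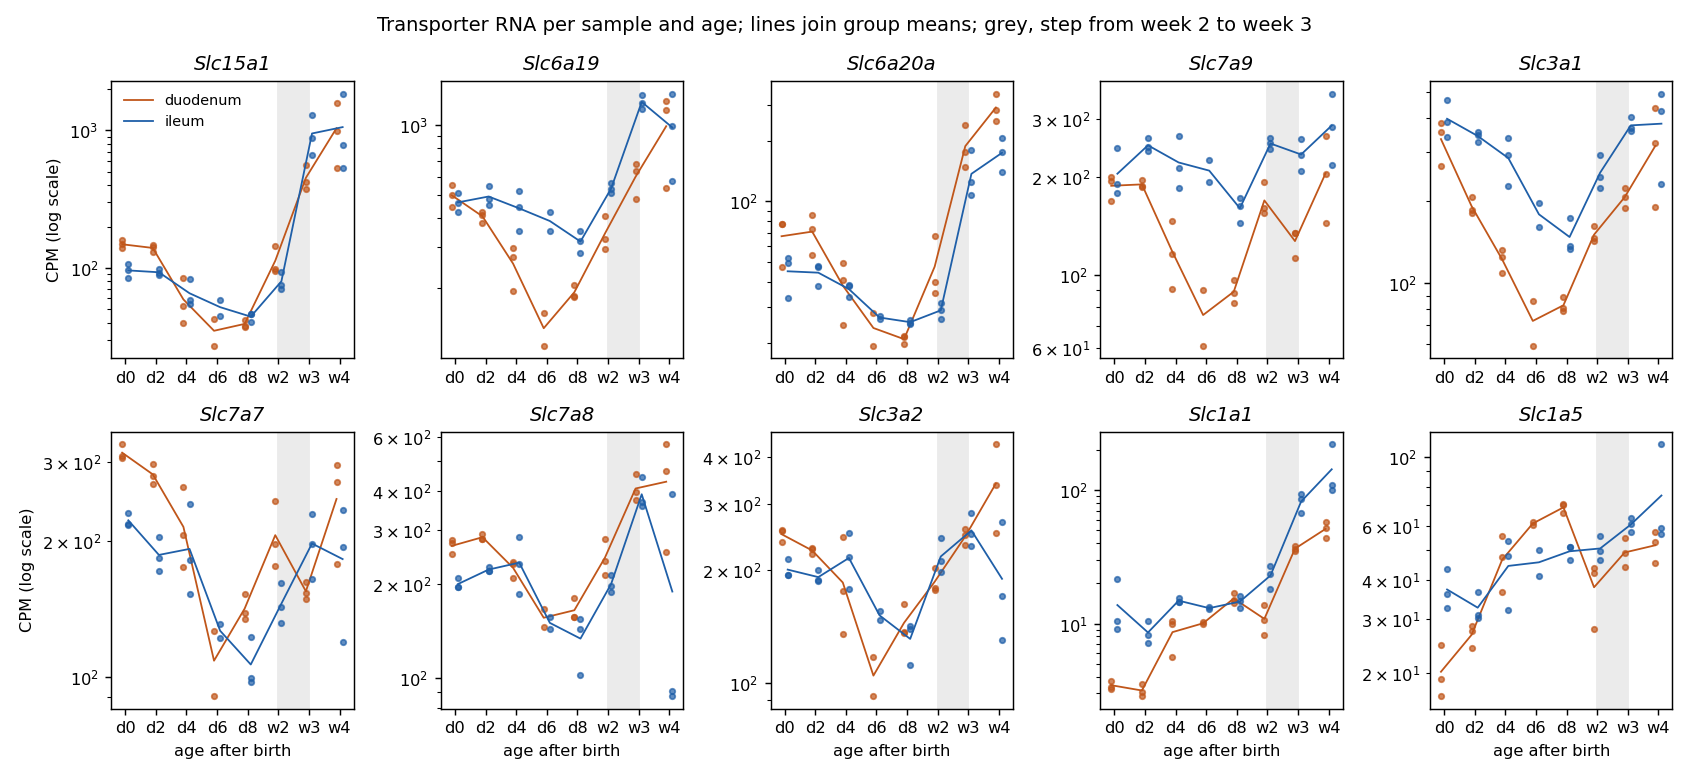
CPM of each of the 10 members (log axis) by age after birth (d, day; w, week) in duodenum (orange) and ileum (blue); points are single samples and lines join group means, with the step from week 2 to week 3 in grey. Slc15a1 and Slc6a20a dipped to a minimum near day 6 to 8 and were highest at week 4, whereas Slc1a5 in duodenum peaked at day 8.

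The first week brought a fall of most of the carriers in duodenum. There, 9 of 10 members changed from day 0 to day 8, against 41.2% of all genes called. Of the 9, 7 fell, against 19.2% of all genes, and 2 rose, against 22%. Slc3a1 fell most: its duodenal samples read 383, 357 and 267 CPM at day 0 and 88.8, 78.8 and 81.1 at day 8. All 3 day 8 samples were well below all 3 newborn samples, a log2 fold change of -2.02 ± 0.23 (SE), with an edgeR adjusted p of 5.69e-09. Slc15a1, the peptide carrier, read 139, 159 and 148 CPM at day 0 and 42.2, 37.9 and 37.5 at day 8. The samples of the 2 ages again did not overlap, and the log2 fold change was -1.92 ± 0.33 (edgeR adjusted p = 1.14e-05). Slc6a20a changed by -1.69, Slc6a19 by -1.38, Slc7a7 by -1.15, Slc7a9 by -1.07 and Slc3a2 by -0.79, all called falls. Slc7a8 had a log2 fold change of -0.69 that was not called (edgeR adjusted p = 0.0643). It passed under other scaling and filtering choices, with adjusted p-values down to 0.000117 when only the groups compared were fitted.

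The glutamate carrier and the neutral exchanger went the other way in the same tissue. Duodenal Slc1a1 read 3.24, 3.37 and 3.74 CPM at day 0 and 16.9, 15.1 and 14.3 at day 8. Every day 8 sample exceeded every newborn sample, and the log2 fold change was 2.15 ± 0.27 (edgeR adjusted p = 4.16e-08). Duodenal Slc1a5 read 24.7, 19.2 and 16.9 CPM at day 0, a mean of 46.6 at day 4 and 70.6, 69.8 and 66.0 at day 8. It climbed through the first week while the brush border exchanger fell, with a log2 fold change of 1.76 ± 0.20 (edgeR adjusted p = 1.03e-08). Without duodenum day 0 samples 2 and 3, the fold changes were 2.14 for Slc1a1 and 1.37 for Slc1a5, both still called, and 9 of 10 members were called as before.

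In ileum the calls of the first week were all falls. From day 0 to day 8, 5 of 10 members fell, against 10.7% of all genes lower and 8.56% higher, 19.3% in all. Slc3a1 read 467, 386 and 342 CPM at day 0 and 134, 172 and 136 at day 8 in ileum, without overlap, for a log2 fold change of -1.44 ± 0.22 (edgeR adjusted p = 1e-05). Ileal Slc7a7 fell by 1.06 and ileal Slc15a1 by 1.12 on the log2 scale. Slc6a20a and Slc3a2 were the other 2, with -0.84 and -0.61. Ileal Slc1a1 (0.09) and Slc1a5 (0.41) were not called (edgeR adjusted p = 0.847 and 0.152). The calls of Slc15a1 (adjusted p = 0.0621 without day 8 sample 1), Slc6a20a (0.0728 without day 0 sample 3) and Slc3a2 (0.0729 without day 0 sample 1 and 0.13 without day 8 sample 1) each rested on single ileal samples, and 3 members were called without day 8 sample 1. The 8 markers of absorptive enterocytes moved in the same span, from a mean sum of 42400 to 24230 CPM in duodenum and from 29630 to 19890 CPM in ileum, while the 8 general epithelial markers went from 3938 to 5041 and from 3946 to 3695 CPM. Their part in the fall of the carriers was not tested.

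From day 8 to week 2, still during suckling, several of the carriers rose. This step shares the day 8 samples with the comparison of day 8 against day 0, so a low day 8 group enters both. Ileal Slc6a19 and Slc7a9, which rose at this step, had no called fall before it (edgeR adjusted p = 0.0902 and 0.198). In duodenum 6 members changed, 5 upward and 1 downward, against 15.7% of all genes (6.75% higher and 8.93% lower): Slc15a1 (1.53 ± 0.33), Slc6a20a (1.19 ± 0.25), Slc7a9 (0.93 ± 0.19), Slc3a1 (0.86 ± 0.22) and Slc6a19 (0.84 ± 0.23) rose and Slc1a5 (-0.86 ± 0.20) fell. Duodenum week 2 sample 1 stood apart from its group, with 145, 95.6 and 97.5 CPM of Slc15a1 in the 3 samples and 27.8, 42.2 and 43.9 CPM of Slc1a5. Without it only 3 members were called, the edgeR adjusted p being 0.108 for Slc6a19, 0.0543 for Slc3a1 and 0.0648 for Slc1a5. Absorptive enterocyte markers went from a mean sum of 24230 CPM at day 8 to 49130 at week 2 in duodenum, and from 19890 to 21560 in ileum, and their part in the rises was not tested. The call of Slc6a19 was also lost without duodenum day 8 sample 2 (adjusted p = 0.0537). In ileum 4 members rose, against 4.17% of all genes higher and 2.47% lower, 6.64% in all: Slc3a1 (0.78 ± 0.22), Slc6a19 (0.75 ± 0.23), Slc3a2 (0.73 ± 0.19) and Slc7a9 (0.66 ± 0.19). These ileal calls were fragile, since leaving out day 8 sample 1 or week 2 sample 3 left 0 and leaving out day 8 sample 3, week 2 sample 1 or week 2 sample 2 left 1, although the fold changes stayed between 0.59 and 0.91 throughout. Mitochondrial genes took 32.7%, 18.0% and 23.7% of the counts in ileum day 8 samples 1, 2 and 3 and 13.4%, 14.5% and 13.4% in those of week 2, and the part of this shift was not tested. Ileal Slc15a1 read 40.1, 46.4 and 46.2 CPM at day 8 and 94.2, 70.0 and 75.6 at week 2, all higher but not called (edgeR adjusted p = 0.106). Ileal Slc6a20a stayed low, with 25.9, 25.1 and 24.9 CPM at day 8 and 26.2, 31.6 and 29.0 at week 2.

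From week 2 to week 3, Slc15a1, Slc6a20a and Slc1a1 rose in both regions. Ileal Slc15a1 went from 94.2, 70.0 and 75.6 CPM at week 2 to 661, 1300.3 and 888 CPM at week 3. The lowest week 3 sample was several times the highest week 2 sample, and the log2 fold change was 3.57 ± 0.35 (edgeR adjusted p = 2.77e-10). Duodenal Slc15a1 went from 145, 95.6 and 97.5 to 423, 558 and 376 CPM, a log2 fold change of 2.00 ± 0.33 (edgeR adjusted p = 1.4e-05). Slc6a20a, the imino acid carrier, rose from 67.8, 35.2 and 39.8 to 175, 239 and 148 CPM in duodenum and from 26.2, 31.6 and 29.0 to 107, 179 and 125 CPM in ileum. Its fold changes were close in the 2 regions, 1.98 ± 0.25 and 2.24 ± 0.25 (edgeR adjusted p = 8.27e-08 and 4.44e-09). Slc1a1, the glutamate carrier, rose from 8.18, 13.7 and 10.7 to 36.1, 35.1 and 38.1 CPM in duodenum and from 18.0, 27.1 and 23.6 to 85.7, 93.5 and 67.0 CPM in ileum, by 1.75 ± 0.26 and 1.84 ± 0.26 on the log2 scale. For these 3 genes no sample of week 2 overlapped the samples of week 3 in either region. The share of all genes separated in this way was not counted. All 6 calls held without any single sample.

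In all, 4 of 10 members were called at this step in duodenum, against 18.3% of all genes (7.7% higher and 10.6% lower), and 6 of 10 in ileum, against 26.8% (12.9% higher and 13.9% lower), with no fall in either region. Slc6a19 completed the duodenal count with 0.81 ± 0.23, a call lost without duodenum week 2 sample 2 or week 3 sample 1 (edgeR adjusted p = 0.0705 and 0.0608). In ileum Slc6a19 rose by 1.23 ± 0.24 and kept its call without any single sample. Ileal Slc7a8 rose by 0.96 ± 0.30, with an edgeR adjusted p of 0.0147 that became 0.0532 without week 2 sample 2 and 0.0601 without week 3 sample 2. Ileal Slc3a1 passed narrowly (0.57 ± 0.22, edgeR adjusted p = 0.0477) and its call was lost without any of week 2 samples 1 and 2 and week 3 samples 1, 2 and 3 (adjusted p = 0.0668 to 0.173). The basolateral exchanger chains Slc7a7 (-0.41 in duodenum and 0.44 in ileum) and Slc3a2 (0.40 and 0.23) and the cystine chain Slc7a9 (-0.41 and -0.11) were not called. The median over the 10 members was 0.60 in duodenum and 0.77 in ileum, beside 0.03 and 0.03 over all genes tested.

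Markers of the epithelium moved at the same step. The 8 epithelial markers summed to 4961 CPM at week 2 and 6603 CPM at week 3 in duodenum, and to 4659 and 9502 CPM in ileum. The 8 absorptive markers summed to 49130 and 29560 CPM in duodenum and 21560 and 25440 CPM in ileum. Epcam itself differed by -0.02 in duodenum and 0.29 in ileum and was called in neither. The sum of the epithelial markers, Epcam among them, nevertheless rose in both regions. Epcam therefore does not stand for that list, whose other genes are not given singly here. Leukocyte markers summed to 94.8 to 143 CPM at week 2 and 28.9 to 32.0 CPM at week 3 in duodenum and to 127 to 154 and 23.3 to 29.7 CPM in ileum. The part of these shifts in the carriers' rises was not tested.

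**Figure D2:**
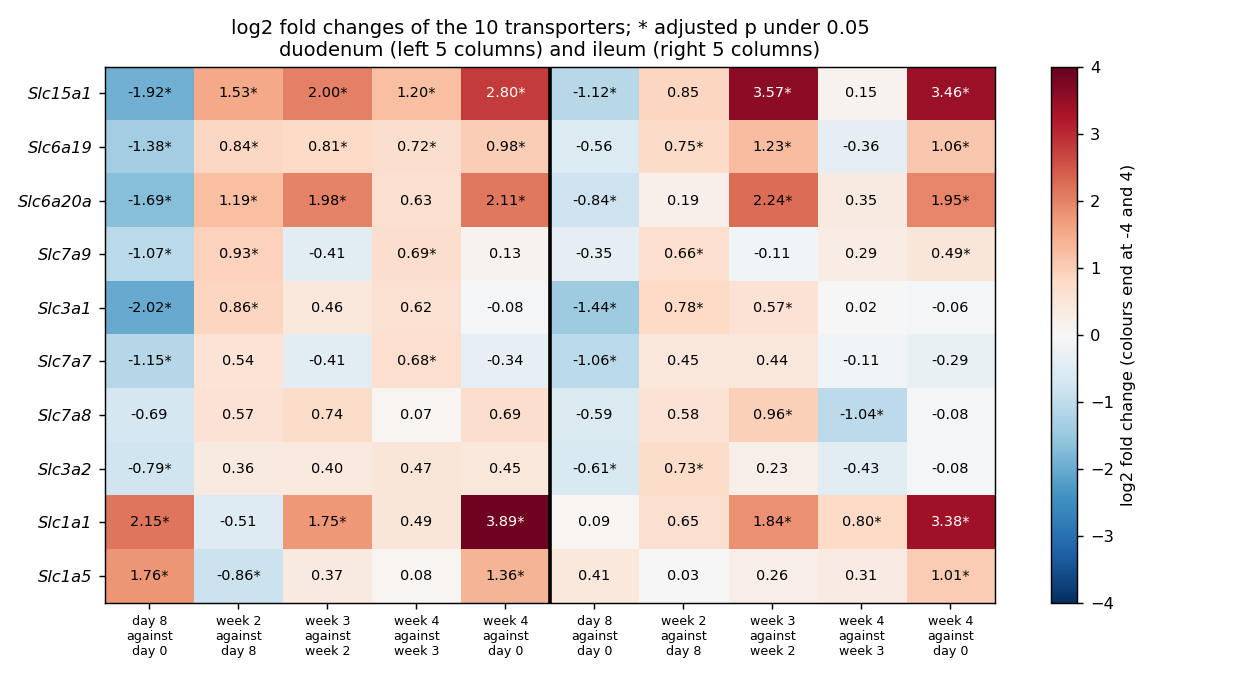
Log2 fold changes of the 10 members (rows) for 5 comparisons between ages (columns) in duodenum and ileum; the number is the edgeR estimate and an asterisk marks an adjusted p under 0.05. Slc15a1, Slc6a20a and Slc6a19 are negative at day 8 and positive with an asterisk at week 3 in both regions, while Slc7a7 and Slc3a2 have no asterisk at that step.

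From week 3 to week 4, calls rested on single samples. In duodenum 4 members rose, against 7.75% of all genes higher and 4.96% lower, 12.7% in all: Slc15a1 (1.20 ± 0.32), Slc6a19 (0.72 ± 0.23), Slc7a9 (0.69 ± 0.19) and Slc7a7 (0.68 ± 0.19). The week 4 duodenal samples were spread widely, with 531, 1594 and 989 CPM of Slc15a1 and 537, 1262 and 1160.4 CPM of Slc6a19, and sample 1 was lowest of the group for 9 of the 10 members, Slc1a5 being the exception. In samples 1, 2 and 3 absorptive markers summed to 24700, 33980 and 33030 CPM and epithelial markers to 7707, 10440 and 8545 CPM, lowest in sample 1 as well, and their part in the spread was not tested. The number called was 0 without week 4 sample 2, 1 without week 3 sample 3, and 2 without week 3 sample 1 or week 4 sample 3. Without week 4 sample 1 it was 6, Slc3a1 and Slc3a2 being added with adjusted p-values of 0.00297 and 0.0231. In ileum 2 members were called, against 16.1% of all genes (8.26% higher and 7.81% lower): Slc1a1 rose (0.80 ± 0.25) and Slc7a8 fell (-1.04 ± 0.30).

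Ileum week 4 sample 1 differed from its companions in the amino acid exporter Slc7a8. Ileal Slc7a8 read 358, 446 and 369 CPM at week 3 and 391, 87.0 and 90.8 at week 4, so that sample 1 stayed in the week 3 range while samples 2 and 3 were far below it. Without sample 1 the Slc7a8 log2 fold change was -2.16. The fall of Slc7a8 was no longer called without week 3 sample 2, week 4 sample 2 or week 4 sample 3 (edgeR adjusted p = 0.0581, 0.103 and 0.108). Slc1a1 lost its call without week 3 sample 1, week 3 sample 3 or week 4 sample 2 (adjusted p = 0.0546, 0.0794 and 0.394), sample 2 having the most Slc1a1 of the 3 (109, 221 and 100.1 CPM). Counts of called members without 1 sample ran from 0 (without week 4 sample 2) through 1 (without week 3 sample 1, 2 or 3 or week 4 sample 3) to 4 (without week 4 sample 1). Leukocyte markers summed to 116, 186 and 328 CPM and smooth muscle markers to 42.6, 216 and 103 CPM in ileum week 4 samples 1, 2 and 3, while absorptive markers summed to 21990, 11730 and 11450 CPM. Sample 1 thus had the highest sum of absorptive markers and the lowest sums of leukocyte and muscle markers, and their part in the difference was not tested.

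Over the whole period, 5 of 10 members were higher at week 4 than at day 0 in duodenum and 6 of 10 in ileum, with no member lower. In duodenum 20.4% of all genes were higher and 20.1% lower, 40.5% in all, and in ileum 21.5% were higher and 20.4% lower, 41.9% in all. These comparisons share the day 0 samples with those of the first week. Slc1a1 changed most in duodenum, to 43.4, 57.9 and 52.3 CPM at week 4, a log2 fold change of 3.89 ± 0.28 (edgeR adjusted p = 4.68e-14), and by 3.38 ± 0.27 in ileum. Slc15a1 rose by 2.80 ± 0.34 in duodenum and 3.46 ± 0.35 in ileum, where the week 4 samples read 1850.4, 786 and 533 CPM. Slc6a20a rose by 2.11 and 1.95, Slc1a5 by 1.36 and 1.01 and Slc6a19 by 0.98 and 1.06 in duodenum and ileum. All of these 10 calls held without any single sample and in duodenum also without day 0 samples 2 and 3. Slc7a9 was called in ileum (0.49 ± 0.19) and not in duodenum (0.13), with no called difference between the regions, and the ileal call was lost without ileum day 0 sample 2 or 3 or week 4 sample 1 or 2 (adjusted p = 0.0772 to 0.231). Slc3a1, which fell early, returned to 189.9, 438 and 324 CPM in duodenum and 425, 492 and 229 CPM in ileum, and its log2 fold changes from day 0 were -0.08 and -0.06 (edgeR adjusted p = 0.794 and 0.853). Slc7a8 in ileum stood at -0.08 with all samples and at -1.22, a called fall, without week 4 sample 1, and Slc7a7 became a called fall there too (-0.55). In duodenum, leaving out week 4 sample 1 added Slc7a8 (0.99) and Slc3a2 (0.66) to the rises.

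The order of the members changed with age when CPM was divided by the length of the principal transcript. At day 0 in duodenum Slc3a1 was highest, with 148 CPM per kb or 18.7% of the sum over the 10 members, just above Slc7a7 (138), Slc3a2 (137) and Slc6a19 (127 CPM per kb). At week 4 Slc15a1 led with 332 CPM per kb in duodenum and 339 in ileum, 24.3% and 26.8% of the sum, after 3.47% and 3.34% at day 8. Slc6a19 came next at week 4 with 251 and 248 CPM per kb. Across samples the values of the 2 genes overlapped in both regions, which does not compare the 2 genes within the same library. Slc1a1 was lowest in every duodenal group, from 0.829 CPM per kb at day 2 to 13.5 at week 4, even after its rise. Between its highest and lowest duodenal group means Slc15a1 spanned 29.7-fold, Slc1a1 16.3-fold and Slc6a20a 14.0-fold, against 2.71-fold for Slc7a9 and 2.75-fold for Slc7a8.

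Chains that form 1 exchanger did not keep a fixed ratio of RNA. On the log2 scale of CPM per kb, Slc7a9 relative to its heavy chain Slc3a1 was -0.60 ± 0.16 (SD) in duodenum at day 0, 0.33 ± 0.03 at day 8, 0.40 ± 0.07 at week 2 and -0.47 ± 0.07 at week 3. Ileum went the same way, with -0.74 ± 0.05 at day 0, 0.36 ± 0.13 at day 8, 0.23 ± 0.15 at week 2 and -0.46 ± 0.17 at week 3. On these group means, heavy chain RNA was in excess at birth and light chain RNA at day 8 and week 2. Heavy chain RNA was in excess again at week 3. Samples of day 0 and day 8 did not overlap in either region. Duodenum was above 0 at day 2 (0.22), while ileum was still below it at day 2 (-0.24) and day 4 (-0.14). Without division by length the ileal mean at week 2 was 0.007. At week 4 the means per kb were -0.36 in duodenum and -0.14 in ileum. Slc7a7 relative to Slc3a2 went from 0.01 ± 0.07 at day 0 to its lowest mean of -0.99 ± 0.13 at week 3 in duodenum. In ileum it went from -0.17 ± 0.12 at day 0 to its lowest mean of -0.90 ± 0.02 at week 2. The ratio then rose again, to -0.78 ± 0.12 at week 4 in duodenum and to -0.70 ± 0.10 at week 3 and -0.37 ± 0.20 at week 4 in ileum. Slc7a8 relative to Slc3a2 was below 0 in every group mean, and highest at week 3 in duodenum with -0.44 ± 0.12 and in ileum with -0.55 ± 0.05. These ratios are descriptions without a test, and Slc3a2 serves further light chains.

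**Figure D3:**
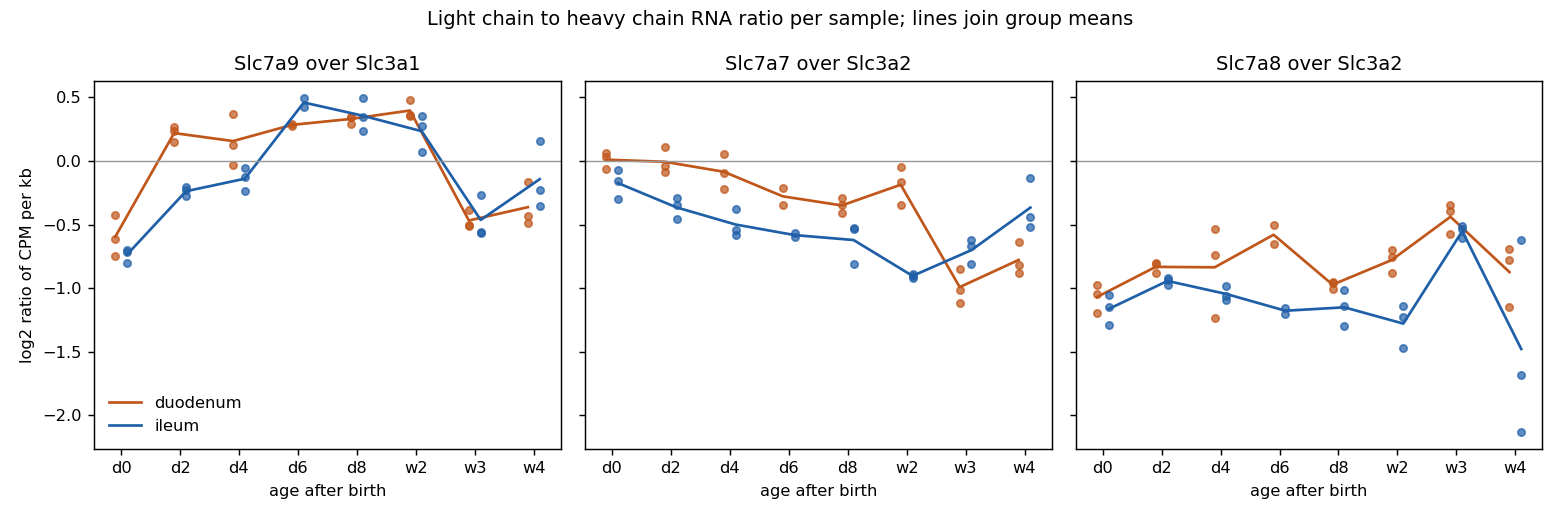
Log2 ratio of light chain to heavy chain RNA in CPM per kb (0 means equal) by age in duodenum (orange) and ileum (blue); points are single samples and lines join group means. Slc7a9 over Slc3a1 lies below 0 at day 0 and week 3 and above 0 at day 8 and week 2 in both regions.

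Region was a further axis. Averaged over the 8 ages, 8 of 10 members differed between ileum and duodenum, against 62.1% of all genes called (31.9% higher in ileum and 30.2% lower). Higher in ileum were 4 uptake genes: Slc1a1 by 1.03 ± 0.09 on the log2 scale, Slc3a1 by 0.79 ± 0.08, Slc7a9 by 0.71 ± 0.07 and Slc6a19 by 0.61 ± 0.09 (largest edgeR adjusted p of the 4 = 9.34e-08). The imino acid carrier and the basolateral light chains were lower in ileum, with log2 differences of -0.35 ± 0.09 for Slc6a20a, -0.32 ± 0.11 for Slc7a8 and -0.26 ± 0.07 for Slc7a7 (edgeR adjusted p = 0.00088, 0.0105 and 0.00194). Slc1a5 was higher in ileum by 0.18 ± 0.07, a call lost without duodenum day 2 sample 1 or ileum day 6 sample 1 (adjusted p = 0.0517 and 0.0688). Slc15a1 (0.03 ± 0.12) and Slc3a2 (-0.06 ± 0.07) were not called, with edgeR adjusted p-values of 0.836 and 0.449.

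Age by age, fewer members were called. At day 0 Slc1a1 (1.99 ± 0.27) and Slc1a5 (0.88 ± 0.20) were called, both higher in ileum, against 2.97% of all genes higher and 3.14% lower, 6.1% in all. Newborn Slc1a1 read 21.6, 10.5 and 9.12 CPM in ileum and 3.24, 3.37 and 3.74 in duodenum, without overlap. Slc1a5 lost its call without ileum day 0 sample 1 (edgeR adjusted p = 0.056) and without duodenum day 0 samples 2 and 3 (0.525), whereas Slc1a1 kept it. At day 8, 3 members were called, all higher in ileum, against 17.1% of all genes higher and 22.6% lower, 39.6% in all: Slc7a9 (0.85 ± 0.19), Slc3a1 (0.83 ± 0.22) and Slc6a19 (0.72 ± 0.23, adjusted p = 0.0512 without ileum day 8 sample 2). Slc1a1 did not differ detectably at that age (-0.07 ± 0.25), its duodenal samples of 16.9, 15.1 and 14.3 CPM overlapping the ileal ones, whose mean was 14.6 ± 1.47 (SD, n = 3).

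From week 2 the ileum again had more Slc1a1. At week 2, 5 members were called, against 22.4% of all genes (10.6% higher and 11.8% lower): Slc1a1 (1.08 ± 0.25), Slc3a1 (0.75 ± 0.22), Slc6a19 (0.64 ± 0.23) and Slc7a9 (0.58 ± 0.19) were higher in ileum and Slc6a20a (-0.72 ± 0.24) was lower. Only Slc1a1 was called without ileum week 2 sample 3, 2 members without ileum sample 2, and 3 without ileum sample 1 or duodenum sample 2 or 3. For Slc6a20a the difference was -0.38 without duodenum sample 1, the sample with the most Slc6a20a of its group (67.8, 35.2 and 39.8 CPM). At week 3, 5 members were called, all higher in ileum, against 7.28% of all genes higher and 6.9% lower, 14.2% in all: Slc1a1 (1.17 ± 0.25), Slc6a19 (1.06 ± 0.23), Slc7a9 (0.88 ± 0.19), Slc3a1 (0.87 ± 0.22) and Slc15a1 (1.07 ± 0.32). The call of Slc15a1 was lost without duodenum week 3 sample 1 or 3 or ileum week 3 sample 2 (adjusted p = 0.0732 to 0.14), though the 3 ileal samples were all above the 3 duodenal ones. At week 4, 6 members were called, against 28.4% of all genes (14.5% higher and 13.9% lower). Slc1a1 (1.48 ± 0.25), Slc1a5 (0.54 ± 0.20) and Slc7a9 (0.49 ± 0.19) were higher in ileum, and Slc7a8 (-1.18 ± 0.30), Slc3a2 (-0.85 ± 0.19) and Slc6a20a (-0.74 ± 0.24) were lower. Slc1a1, Slc7a8 and Slc3a2 kept their calls without any single sample. Slc7a9 lost it without sample 1 of either region, duodenum sample 3 or ileum sample 2, Slc1a5 without duodenum sample 1 or 3 or ileum sample 2, and Slc6a20a without sample 3 of either region (adjusted p over these = 0.0697 to 0.618), and 3 members were called without duodenum sample 3. Slc7a7 (-0.44) became a called difference without duodenum sample 1 (-0.66) or ileum sample 1 (-0.68). Fitting only the 2 groups of week 4 left 1 of the 6 members called and lowered the count over all genes from 6234 to 2491. Slc7a8 read 391, 87.0 and 90.8 CPM in ileum and 254, 567 and 466.5 CPM in duodenum, so ileum sample 1 lay among the duodenal samples. Absorptive markers summed to a mean of 30570 CPM in duodenum and 15050 CPM in ileum at week 4, and their part in these differences was not tested.

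**Figure D4:**
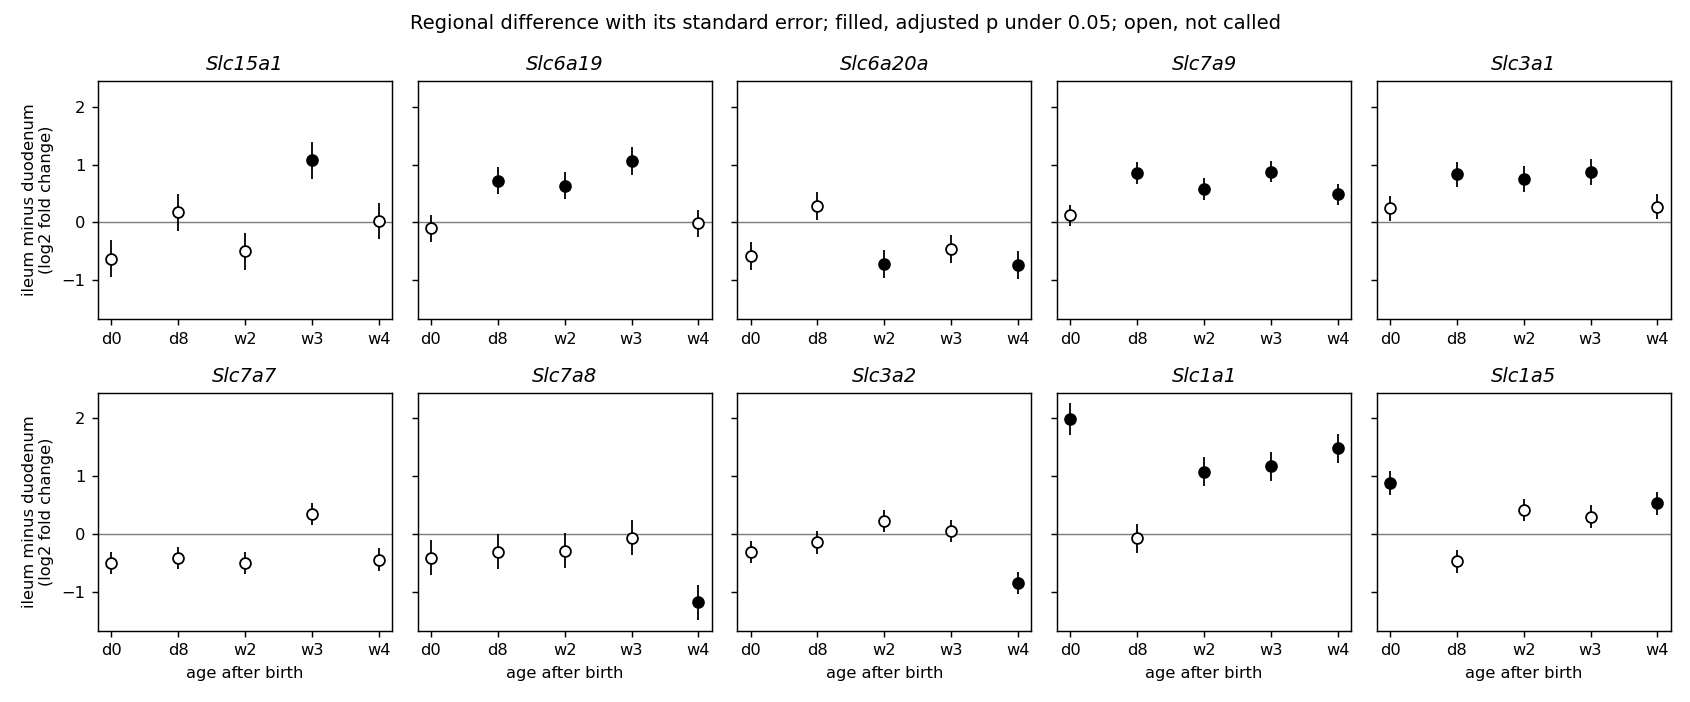
Log2 difference of ileum minus duodenum for each member at 5 ages, with bars of 1 standard error from the edgeR fit; filled points have an adjusted p under 0.05 and open points do not. Slc1a1 is near 0 at day 8 and above 1 at week 2, 3 and 4, while Slc7a8 and Slc3a2 are filled only at week 4, below 0.

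The test of the interaction, which asks whether the course over the 8 ages differed between the regions, called 7 of 10 members, against 22.4% of all genes. Slc1a1 had the lowest value (edgeR adjusted p = 0.00163), followed by Slc1a5 (0.0052), Slc6a19 (0.00809), Slc3a2 (0.0137), Slc7a9 (0.0195), Slc15a1 (0.0383) and Slc7a7 (0.0478). Slc3a1 (0.0699), Slc6a20a (0.0792) and Slc7a8 (0.297) were not called. Slc1a1 and Slc1a5 were called in all 55 alternatives. The calls of Slc15a1 and Slc7a7 changed in 22 and 34 of the 55, those of Slc7a9, Slc3a2 and Slc6a19 in 3, 2 and 1. With the 2 samples labelled day 6 sample 3 included, 2 members were called. The count was 4 without duodenum day 6 sample 1 or ileum day 6 sample 2, each of which leaves that group with 1 sample that is assumed to vary like the other groups. Slc7a9 lost its call in both of these cases, with adjusted p-values of 0.0813 and 0.0738.

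On single steps, few differences between the regions were called. None of the 10 members differed in its change from day 0 to week 4 by edgeR, against 5.99% of all genes (3.14% higher and 2.85% lower), none had an unadjusted p under 0.05, and DESeq2 also called 0. Without ileum week 4 sample 1, Slc7a8 (-1.88) and Slc3a2 (-0.89) were called, the ileal change being the lower one. For the step from week 2 to week 3 edgeR again called none, against 1.38% of all genes (0.755% higher and 0.623% lower). There, 2 members had an unadjusted p under 0.05, Slc15a1 and Slc7a7, and DESeq2 called both. The ileal rise of Slc15a1 exceeded the duodenal one by 1.57 ± 0.45 on the log2 scale (edgeR adjusted p = 0.0777, and 0.0435 without ileum week 3 sample 1). For Slc7a7 the difference was 0.86 ± 0.27 (edgeR adjusted p = 0.125).

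Members resembled each other to very different degrees over the 16 group means of log2 CPM. Of the 45 pairs, 6 had a Pearson r over 0.8 and 7 had one below 0. The highest was Slc15a1 with Slc6a20a (0.97), followed by Slc15a1 with Slc6a19 (0.88), Slc7a9 with Slc3a1 (0.88) and Slc6a19 with Slc3a1 (0.87), and the lowest was Slc7a7 with Slc1a5 (-0.66). Among the 12356 named genes that averaged log2 CPM 1 or more, Slc5a1 was the gene most like both Slc15a1 (0.98) and Slc6a20a (0.98). The closest to the others were Zzef1 for Slc6a19 (0.98), Mogat2 for Slc7a7 (0.96), Plekhf1 for Slc7a8 (0.92), Ulk3 for Slc7a9 (0.95), Sptlc2 for Slc3a1 (0.96), Epn1 for Slc3a2 (0.95), Plce1 for Slc1a1 (0.96) and Ivd for Slc1a5 (0.94). Second were Aspa for Slc15a1 (0.97), Slc6a8 for Slc6a19 (0.98), Plpp1 for Slc6a20a (0.97), Chmp7 for Slc7a7 (0.92), Aldh3a2 for Slc7a8 (0.92), Myo15b for Slc7a9 (0.95), Slc26a2 for Slc3a1 (0.95), Hectd3 for Slc3a2 (0.95), Vsig10 for Slc1a1 (0.95) and Dagla for Slc1a5 (0.92). The group means share libraries and their scaling, so these values are descriptions.

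Peptidases, scaffolds and other proteins that the carriers work with were read from a list of 9 genes, all of which were tested. Cltrn (collectrin), a partner of Slc6a19 in kidney, was low throughout, with group means of at most 3.45 CPM. At the step from week 2 to week 3, 5 of the 9 rose and 1 fell in duodenum, where 7.7% of all genes were higher and 10.6% lower, and 7 rose in ileum, where 12.9% were higher and 13.9% lower. Among them were the brush border peptidases that release the substrates of these carriers. Anpep (aminopeptidase N) went from 689.6, 805 and 807 to 4617, 7647 and 5735 CPM in ileum (2.97 ± 0.26) and rose by 1.50 ± 0.25 in duodenum, where it rose by a further 2.16 ± 0.26 to week 4. Xpnpep2, a proline-directed aminopeptidase, went from 23.0, 28.0 and 25.4 to 412, 650 and 489 CPM in ileum (4.34 ± 0.40). Mme (neprilysin) went from 12.8, 6.53 and 9.74 to 254, 516 and 467 CPM in ileum (5.41 ± 0.78), but its duodenal difference of 1.46 ± 0.66 was not called (edgeR adjusted p = 0.13). Dpp4, which removes dipeptides that often contain proline, rose by 1.68 ± 0.23 in duodenum and 2.17 ± 0.23 in ileum, and Enpep (aminopeptidase A) by 2.58 ± 0.28 and 1.42 ± 0.27. Slc9a3, the sodium-proton exchanger that sustains the proton gradient used by Slc15a1, was the 1 fall in duodenum (-1.32 ± 0.33) and was not called in ileum (0.34). Of its scaffold proteins, Slc9a3r1 rose in both regions (0.73 and 1.20) and Pdzk1 in ileum (0.60, against 0.17 in duodenum, not called). The median over the 9 genes was 1.46 in duodenum and 1.42 in ileum, beside 0.03 and 0.03 over all genes tested.

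**Figure D5:**
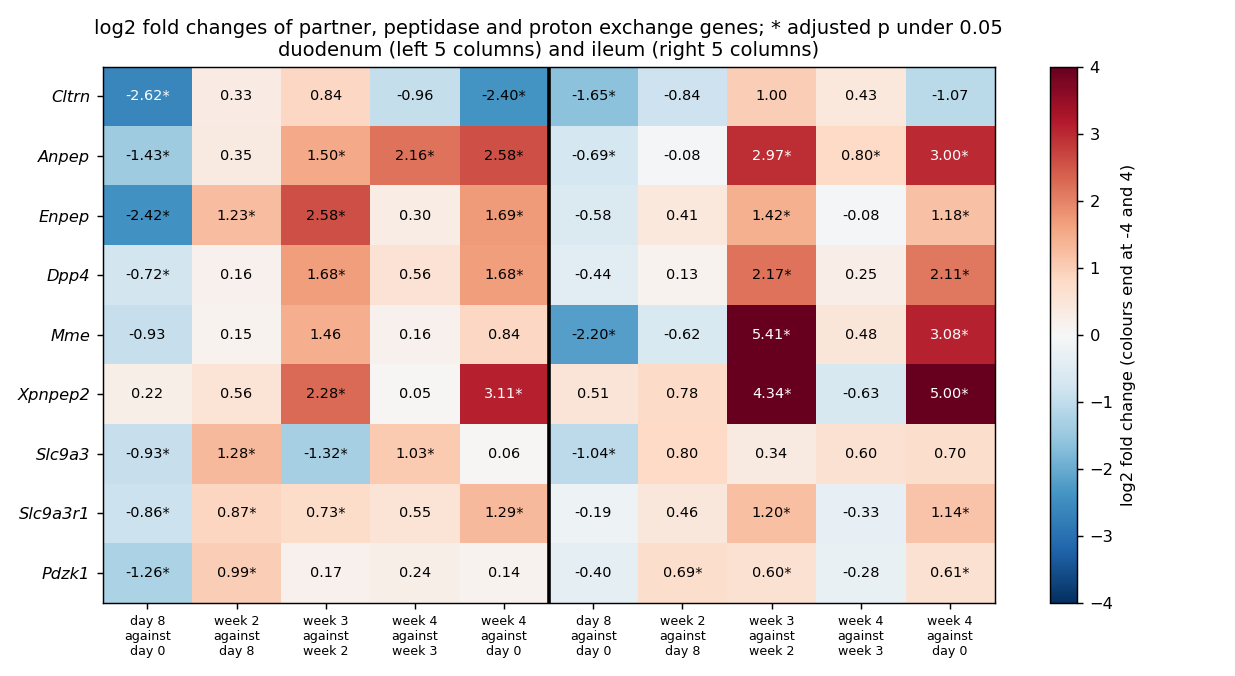
Log2 fold changes of 9 partner, peptidase and proton exchange genes (rows) for the same 5 comparisons between ages in duodenum and ileum, with an asterisk for an adjusted p under 0.05; the colour scale ends at 4 in both directions. The week 3 columns are red for the peptidases Anpep, Enpep, Dpp4 and Xpnpep2 in both regions, and Mme reached 5.41 in ileum.

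Carriers of amino acids and peptides outside the set moved in both directions. Of 31 listed, 28 were tested, and from day 0 to week 4 duodenum had 9 rises and 10 falls, where 20.4% of all genes were higher and 20.1% lower, and ileum 12 rises and 9 falls, where 21.5% were higher and 20.4% lower. By the naming rule, the largest duodenal rises were Slc1a3 (3.34 ± 0.63), a glutamate carrier, Slc7a15 (3.28 ± 0.31) and Slc36a1 (2.19 ± 0.31), a proton-coupled carrier of small amino acids. In ileum they were Slc7a15 (4.07 ± 0.32), Slc1a3 (2.23 ± 0.67) and Slc43a2 (1.94 ± 0.27). Slc1a3 stayed low, with means of 0.855 CPM at day 0 and 8.95 CPM at week 4 in duodenum and 0.509 and 2.5 CPM in ileum. Slc7a15 went from 12.7 to 123.8 CPM in duodenum and from 6.1 to 102.4 CPM in ileum. Slc15a2, the relative of Slc15a1 with high affinity for peptides, fell most in both regions (-4.71 ± 0.75 and -5.54 ± 0.81), from a mean of 15.1 CPM in ileum at day 0 to 0.375 at week 4. Its course was not a steady fall, since it rose from week 2 to week 3 by 4.49 ± 0.73 in duodenum and 2.44 ± 0.62 in ileum, the step at which Slc15a1 rose too. Slc38a3, a glutamine carrier, fell by 4.31 and 3.87, Slc36a4 fell by 2.53 in duodenum and Slc38a7 fell by 3.05 in ileum. Averaged over ages, Slc38a3 (3.56 ± 0.18), Slc36a4 (1.83 ± 0.09) and Slc7a15 (1.33 ± 0.12) were most in excess in ileum and Slc1a3 (-1.44 ± 0.22), Slc7a1 (-0.65 ± 0.09) and Slc1a4 (-0.48 ± 0.10) in duodenum. For Slc7a15, however, duodenum had the higher mean at day 0 (12.7 against 6.1 CPM) and week 4 (123.8 against 102.4 CPM). Slc1a4 had the higher mean in ileum at day 0 (4.67 against 2.95 CPM), week 3 (9.13 against 8.65 CPM) and week 4 (9.41 against 6.47 CPM). At the other ages both genes followed their average.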

How the data were processed

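RNA of 48 intestinal samples was sequenced. The values used are the estimated counts per gene that the authors deposited, made with STAR 2.6.1d and Salmon 0.14.2 on mm10, per the submitters' processing notes, which also name DESeq2 1.30.1. The authors also deposited normalized counts for 40 samples, a signal equal to the estimated counts divided by 1 factor per column. These served only for gene symbols.

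Counts were rounded and fitted with edgeR 4.0.16 in R 4.3.3 (TMM scaling, filterByExpr on the 16 groups, robust quasi-likelihood fit with 1 mean per group, 46 samples). P-values were adjusted by Benjamini-Hochberg over 21986 genes, and a call means an adjusted p under 0.05. A standard error is the log2 fold change divided by the root of F. CPM per kb divides by the GENCODE M21 principal transcript. The fit was tested on simulated data. Total counts ran from 16824021 to 65042327, so for genes with many counts the counting error is small beside the spread between samples. This need not hold for Slc1a1, which averaged only 132 counts per sample in duodenum at day 0.

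The members and lists were chosen with earlier results of these data known. All members are named. Of the other carriers, those named are the 3 called genes with the largest rise and the 3 with the largest fall among genes averaging log2 CPM 1 or more, a limit also used for likeness. DESeq2 1.42.0 was an alternative. Other alternatives were RLE factors, no filter, a mean count of at least 10, only the groups compared, all 48 samples, the 40 samples, a replicate block and each sample left out. Added after seeing the data were a fit without duodenum day 0 samples 2 and 3 and the 40 samples with a replicate block. A further gene was taken out of the partner list and is not reported here.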

Additional observations from a re-analysis of the deposited data

Results flagged for a closer look

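For 7 members the course over age differed between duodenum and ileum by the interaction test. The edgeR adjusted p was 0.00163 for Slc1a1, 0.0052 for Slc1a5, 0.00809 for Slc6a19, 0.0137 for Slc3a2, 0.0195 for Slc7a9, 0.0383 for Slc15a1 and 0.0478 for Slc7a7. Of all genes, 22.4% passed this test. Slc1a1 was higher in ileum at day 0 (1.99 ± 0.27), near equal at day 8 (-0.07 ± 0.25) and higher in ileum again at week 4 (1.48 ± 0.25). Slc1a5 was 0.88 ± 0.20 at day 0 and -0.47 ± 0.20 at day 8, and the day 0 value was 0.59 without duodenum day 0 samples 2 and 3. Over all 55 alternatives the largest edgeR adjusted p was 0.00907 for Slc1a1, 0.0403 for Slc1a5, 0.415 for Slc6a19, 0.158 for Slc3a2, 0.673 for Slc7a9, 0.152 for Slc15a1 and 0.139 for Slc7a7.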

How the results depend on the processing

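In 4460 member values under alternatives no called direction reversed, while some values called under neither choice changed sign. Of these, 4179 stayed on the same side of the threshold, 196 lost a call and 85 gained one, and 125 of 210 combinations of member and comparison never changed their call. Leaving out each of the 46 samples in turn gave these ranges of members called. In duodenum they were 10 to 10 for the age effect, 9 to 9 for day 8 against day 0, 3 to 7 for week 2 against day 8, 3 to 4 for week 3 against week 2, 0 to 6 for week 4 against week 3 and 5 to 7 for week 4 against day 0. In ileum they were 9 to 10, 3 to 5, 0 to 3, 4 to 6, 0 to 4 and 5 to 7 in the same order. Between regions they were 7 to 8 averaged over ages, 1 to 2 at day 0, 2 to 3 at day 8, 1 to 4 at week 2, 4 to 5 at week 3, 3 to 6 at week 4, 4 to 9 for the interaction, 0 to 2 for the region difference in week 4 against day 0 and 0 to 1 for that in week 3 against week 2.

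With only the groups compared, the members called were 9 in place of 4 for duodenum week 3 against week 2, 8 in place of 4 for ileum week 2 against day 8, 0 in place of 2 for ileum week 4 against week 3, 4 in place of 2 at day 0, 7 in place of 3 at day 8, 1 in place of 6 at week 4 and 2 in place of 0 for the region difference in week 3 against week 2. With all 48 samples they were 2 for duodenum week 4 against week 3, 0 for ileum week 2 against day 8, 2 at week 2, 3 at week 3 and 2 for the interaction. DESeq2 called 2 for the region difference in week 3 against week 2, and without duodenum day 0 samples 2 and 3 there was 1 at day 0. The cause was not tested. Only the groups compared could not differ from the main choice for the averaged difference and the interaction, where all groups enter.

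Counts over all genes moved by over 1.5 times as follows. Without duodenum day 0 samples 2 and 3 they went from 8909 to 5521 for duodenum week 4 against day 0, 9054 to 5870 for day 8 against day 0, 1342 to 82 between regions at day 0 and 1317 to 266 for the region difference in week 4 against day 0. With only the groups compared they went from 3448 to 6278 for duodenum week 2 against day 8, 1460 to 3472 for the same step in ileum, 3534 to 1527 for ileum week 4 against week 3, 4922 to 7426 at week 2, 6234 to 2491 at week 4, 1317 to 377 for the region difference in week 4 against day 0 and 303 to 584 for that in week 3 against week 2. With all 48 samples the same order of comparisons gave 1528 for duodenum and 417 for ileum week 2 against day 8, 578 at day 0, 2561 at week 2, 1376 in place of 3117 at week 3, 947 in place of 4930 for the interaction, and 697 and 113 for the 2 region differences. The 40 samples gave 4568 in place of 2794 for duodenum week 4 against week 3, 3037 for ileum week 2 against day 8, 2419 at day 0, 5585 at week 3, 9512 for the interaction, and 3146 and 672 for the region differences. The 40 samples with the replicate block gave 4317, 2815, 2791, 5889, 9549, 3336 and 836 in the same order. No filter gave 886 for ileum week 2 against day 8 and 894 at day 0, and DESeq2 gave 577 for the region difference in week 3 against week 2.

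Leaving out 1 sample lowered or raised counts over all genes by over 1.5 times in duodenum week 2 against day 8 (825 to 3018) and week 4 against week 3 (1706 to 2738), in ileum day 8 against day 0 (2639 to 3685), week 2 against day 8 (60 to 1376) and week 4 against week 3 (2331 to 4368), between regions at day 0 (484 to 1280), week 2 (3266 to 4301), week 3 (1658 to 3112) and week 4 (3256 to 7232) and for the region differences (607 to 2288 and 165 to 299).

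The replicate block lost 6 member calls and gained 3. For the interaction it left 5 members in place of 7, with edgeR adjusted p-values of 0.0509 for Slc15a1, 0.0651 for Slc3a2 and 0.133 for Slc7a7, which lost their calls, and 0.0461 for Slc6a20a, which gained one. Samples with the same number in both regions correlated over 0.1 in 16 of 23 pairs (mean r 0.15, from -0.36 to 0.67). The mean r for different numbers was -0.079. Deviations from each group mean were correlated, which ties this value to the first, so it is no separate check. The numbers were not used to pair the samples because not every pair was over 0.1. This does not exclude that samples with the same number came from 1 animal. For genes with many counts, groups of 2 or 3 samples limit the precision more than depth does.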
